A study of Caenorhabditis elegans with 2 samples.

Results

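The regions described here are 511 peaks of a transcription factor ChIP-seq experiment in Caenorhabditis elegans that lie on the X chromosome, away from the promoters of protein-coding genes, and lack the canonical E-box hexamer CACGTG. They make up 11.9% of the 4293 peaks that passed the authors' irreproducible discovery rate (IDR) comparison, which keeps peaks that rank alike in both replicates. A peak was kept when its summit, the base of highest signal, lay on X, outside the promoter windows of all protein-coding genes (the 1000 bp before each annotated start and the 200 bp after it), and when no CACGTG lay within 100 bp of the summit. Chromosome, distance from promoters, hexamer and IDR signal therefore chose these peaks, and the values of those measures are given as descriptions with no test. Of the 4279 peaks on X in the full list called on both replicates together that met the position and hexamer rules, 511 (11.9%) were in the IDR list, against 15.6% of all 27577 peaks of that full list. The latter include promoter and E-box peaks. By the same position and hexamer rules, the autosomes had from 9.77% (chromosome V) to 11.93% (chromosome II).

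Both libraries came from whole L4 larvae, the last larval stage, of strain OP355, with male and female animals pooled. The strain carries the mutant allele unc-119(tm4063) III and the integrated transgene wgIs355, which the strain label gives as an insertion targeting mdl-1. The antibody label also names mdl-1, but the free-text description names eGFP-ZK337.2, a gene called klu-1 in RefSeq, so the tagged protein is given in conflicting ways. The libraries were labelled biological replicates 1 and 2 of 1 group, had fragments of 150 to 350 bp, and carried no further statement of separate cultures; there was no second condition to compare. A whole-animal library mixes all tissues, so binding in few cells and weak binding in many cells cannot be told apart.

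MDL-1 is the worm relative of the mammalian Mad proteins, repressors with a basic helix-loop-helix and leucine zipper that pair with Max-type partners and bind the E-box CACGTG. Hexamers that differ little from CACGTG can also be bound by proteins of this family, usually less tightly. The X chromosome of C. elegans hermaphrodites is bound by a dosage compensation complex that lowers its transcription, and the complex is recruited at X sites that hold a motif whose core is GCGCAGGG. GA-repeat words are common in C. elegans promoters, and TGATAA is the site of GATA factors, which act in the intestine and epidermis.

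The windows below run 100 bases to either side of the summits of the 5 strongest peaks outside the mdl-1 region, of the strongest peak inside it, and of the strongest peaks with GCGCGC and with GCGCAGGG, shown because the motif results rest on windows of this kind. All are RefSeq sequence of WBcel235, the assembly also called ce11, on the plus strand and 5′ to 3′. Capitals mark every copy, on either strand, of the GA-repeat word GAGAGA, the GC-rich word GCGCGC, the X core GCGCAGGG, the GATA site TGATAA and 4 non-canonical E-boxes. The E-box variants were CACGCG, then CATGTG in addition to CACGAG, and the rarer word CATGCG. Overlapping copies run together.
pigx-1 (chrX:1093181-1093381, +): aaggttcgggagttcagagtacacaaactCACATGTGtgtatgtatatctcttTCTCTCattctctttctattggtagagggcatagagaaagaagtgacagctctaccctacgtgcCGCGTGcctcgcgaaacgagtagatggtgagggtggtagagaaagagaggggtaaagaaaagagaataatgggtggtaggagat
nfki-1 (chrX:15354121-15354321, +): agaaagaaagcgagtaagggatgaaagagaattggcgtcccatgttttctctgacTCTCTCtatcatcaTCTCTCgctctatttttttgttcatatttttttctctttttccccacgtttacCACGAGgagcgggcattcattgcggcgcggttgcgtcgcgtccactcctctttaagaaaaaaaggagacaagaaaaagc
unk-1 (chrX:8019785-8019985, +): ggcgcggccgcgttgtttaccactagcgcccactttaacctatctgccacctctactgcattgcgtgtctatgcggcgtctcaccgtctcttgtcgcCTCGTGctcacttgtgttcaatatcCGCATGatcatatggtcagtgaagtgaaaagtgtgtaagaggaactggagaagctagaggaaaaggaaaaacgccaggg
ain-1 (chrX:16612348-16612548, +): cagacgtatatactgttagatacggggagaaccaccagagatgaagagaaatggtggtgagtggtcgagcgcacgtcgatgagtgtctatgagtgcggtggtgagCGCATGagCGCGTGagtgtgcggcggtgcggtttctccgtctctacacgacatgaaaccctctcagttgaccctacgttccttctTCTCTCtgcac
myrf-2 (chrX:10188624-10188824, +): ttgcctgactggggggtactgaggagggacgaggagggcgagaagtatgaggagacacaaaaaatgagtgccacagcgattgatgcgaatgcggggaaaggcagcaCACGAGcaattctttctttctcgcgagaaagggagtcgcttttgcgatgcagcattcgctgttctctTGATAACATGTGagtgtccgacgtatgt
abts-4 (chrX:6749311-6749511, +): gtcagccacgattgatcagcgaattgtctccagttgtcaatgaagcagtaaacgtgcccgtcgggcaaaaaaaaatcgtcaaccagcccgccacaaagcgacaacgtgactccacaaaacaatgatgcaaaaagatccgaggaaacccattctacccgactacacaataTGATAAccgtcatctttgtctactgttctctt
F49E2.5 (chrX:9551169-9551369, +): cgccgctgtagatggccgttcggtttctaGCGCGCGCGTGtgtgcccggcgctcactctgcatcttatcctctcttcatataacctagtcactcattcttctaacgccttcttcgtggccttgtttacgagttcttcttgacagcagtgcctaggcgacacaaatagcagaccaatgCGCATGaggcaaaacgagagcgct
mom-1 (chrX:6296534-6296734, +): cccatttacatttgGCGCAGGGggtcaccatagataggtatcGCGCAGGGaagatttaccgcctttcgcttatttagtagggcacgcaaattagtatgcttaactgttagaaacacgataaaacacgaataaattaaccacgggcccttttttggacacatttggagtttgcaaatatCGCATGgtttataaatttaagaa

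The strongest of the 511 peaks lay between genes, at X:1093064-1093510, 3732 bp from the start of pigx-1, and had a deposited signal of 731; its values in the single lists were 392 for replicate 1 and 342.5 for replicate 2. Signal is the authors' own height value for a peak; no scale for it is stated by the labels or the file descriptions, and it differs between single-replicate and combined lists. The strongest peak inside the mdl-1 region lay in an intron of abts-4, an anion transporter family gene, at 669, and stood at 256 in replicate 1 and 341 in replicate 2. The shown windows of nfki-1, an I-kappa-B-like gene, of unk-1, of ain-1, which encodes a microRNA silencing factor, and of myrf-2, a myelin regulatory factor gene, had signals of 398, 342.9, 339 and 333. All 4 of these hold at least 1 non-canonical E-box, and the abts-4 window holds none.

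Over all 511 peaks the signal ran from 45.6 to 731, with a median of 73.1, against medians of 71.1 over 1450 autosomal peaks chosen by the same position and hexamer rules and 75.1 over 343 X promoter peaks without CACGTG. The lowest peaks inside the list stood at 45.6 and 45.7, and the highest peaks of the same kind left outside it at 45.5. Promoter windows ended 3 and 6 bp from the nearest members, while the nearest X promoter peaks lay 21 and 23 bp inside theirs. A further E-box centred within 200 bp was present for 19 of the 511.

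Signals in the single-replicate lists had medians of 37.9 in replicate 1 and 37.2 in replicate 2, where each peak took the value of the overlapping replicate peak with the closest summit. The log2 ratio of replicate 1 over replicate 2 had a median of 0.05 and an SD of 0.65 over the 511 peaks. Replicate 1 was higher at 276 peaks and replicate 2 at 235. The ratio was above the median of the whole IDR list at 47.2% of the 511, against 52.8% of the autosomal set (adjusted p = 0.061, Fisher's exact test). The X promoter set had 49.6% (adjusted p = 0.53, Fisher's exact test). IDR had compared the signals of these same replicates in every set, so both p-values are descriptions only. The widest gap was at a peak downstream of nhr-3, a nuclear hormone receptor gene, with 7.65 in replicate 1 and 75.3 in replicate 2. Both replicates had a summit within 100 bp of the listed one at 475 peaks (93.0%), against 94.9% of all IDR peaks. The strongest 4293 peaks of each replicate were overlapped by 383 (74.95%), against 75.6% of all IDR peaks. Both shares are near those of the whole list.

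**Figure D1:**
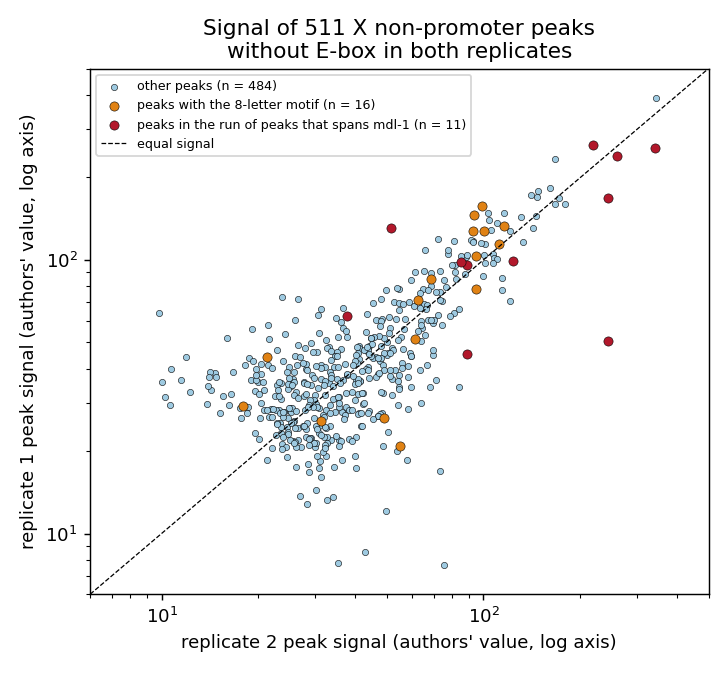
Deposited peak signal in replicate 1 (vertical, log axis) against replicate 2 (horizontal, log axis) for the 511 X non-promoter peaks without CACGTG, one point per peak, with the 16 peaks that hold GCGCAGGG and the 11 peaks of the run spanning mdl-1 marked. Points scatter around the line of equal signal, with a median log2 ratio of 0.05 and an SD of 0.65.

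The run of neighbouring IDR peaks that spans mdl-1, X:6728925-6750701, holds 11 of the 511 peaks among its 22. Their signals ran from 50.8 to 669, with a median of 181, against 71.8 over the other 500 peaks. mdl-1 lies at X:6742351-6743899 on the plus strand, and the peak X:6744539-6744897, 2384 bp downstream of its start, had 500.2, with 240.2 in replicate 1 and 260.5 in replicate 2. An intronic abts-4 peak at X:6747897-6748403 had 475, and an intergenic peak nearest to R03E9.2 had 415. This region supplied 4 of the 20 strongest of the 511 peaks; the part of the mdl-1 transgene or the tagged locus in these signals was not tested. A weaker line, at X:6736396-6736872, shares its replicate 2 value of 244.3 with a stronger overlapping line, since the replicate 2 list holds 1 peak there; 25 of the 511 overlap another IDR line. klu-1 and unc-119 are not on X.

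Most summits lay between genes or in introns. Of the 511 peaks, 293 (57.3%) had intergenic summits, 188 (36.8%) intronic, 13 (2.54%) in coding exons, 12 (2.35%) in 5′ UTRs and 5 (0.978%) in 3′ UTRs. On X outside the promoter windows, intergenic bases make up 39.2%, introns 35.2% and coding exons 21.3%. Intronic summits were less frequent than in the autosomal set, where 633 of 1450 (43.7%) were intronic (odds ratio 0.75, adjusted p = 0.023, two-sided Fisher's exact test with Benjamini-Hochberg adjustment over 18 tests). That call was lost with 1 peak per run of neighbouring peaks (adjusted p = 0.42, the same exact test), among peaks at or above the median signal (0.24), with replicate 1's own list (0.052), with summits close in both replicates (0.070) and without tRNA gene windows (0.073). The units of all these tests are peaks, so p-values describe the spread over peaks of 1 experiment and not over animals.

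Summits stood at a median of 2584 bp from the nearest protein-coding gene start, from 206 to 15211 bp, and 95 were over 5 kb away. The next IDR summit was at a median of 2429 bp. Another IDR summit lay within 2000 bp at 232 of the 511 peaks (45.4%), against 98 of 343 X promoter peaks (28.6%). The odds ratio was 2.08 (adjusted p = 4.3e-06, Fisher's exact test). Peaks that close count for each other, so they are not independent units and this p-value overstates the evidence. With 1 peak kept per run the odds ratio was 1.45 (adjusted p = 0.42, Fisher's exact test), but that setting drops close neighbours by its construction. Against the autosomal set, at 43.6%, the share did not pass (adjusted p = 0.53, Fisher's exact test). The window of another annotated coding transcript start held 66 of the 511 summits (12.9%), against 14.8% in the autosomal set (adjusted p = 0.37, Fisher's exact test).

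**Figure D2:**
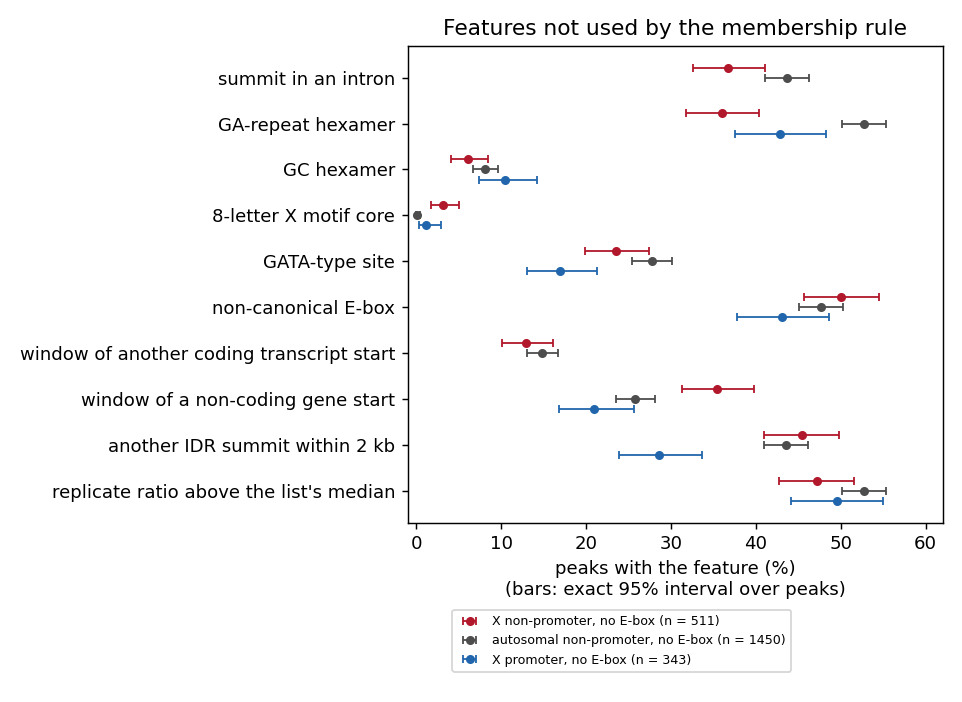
Share of peaks with each feature that the position and hexamer rules did not use, in percent, with exact 95% intervals over peaks. The sets are 511 X non-promoter peaks without CACGTG, 1450 autosomal peaks of the same rules and 343 X promoter peaks without CACGTG. The replicate ratio is built from signals that IDR had compared. The GA-repeat hexamer stands at 36.01% in the X non-promoter set and 52.8% in the autosomal set, and the non-coding start windows at 35.4% and 25.8%. Windows of genes typed ncRNA cover 13.8% of X bases outside promoter windows and 6.58% of autosomal ones, which these shares do not take into account.

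GCGCAGGG, the core of the dosage compensation recruitment motif, was found at 16 of the 511 summits, again within 100 bp (3.13%, exact 95% interval 1.80 to 5.04%), against 2 of the 1450 autosomal peaks (0.138%, 0.0167 to 0.497%). The odds ratio was 23.4 (adjusted p = 3.0e-07, Fisher's exact test). All 15 alternative settings stayed past the threshold; in 12 of them the odds ratio lay between 17.6 and 45.9, and in 3 no autosomal peak held the word, so no ratio is given. The motifs were chosen with earlier results of these data known, so the p-values of all motif comparisons are not independent evidence. The same word occurred in 0.0834% of X windows and 0.0558% of autosomal windows of that length tiled outside promoters. X promoter peaks held it in 4 of 343 cases (1.17%), a difference from the 511 that did not pass (adjusted p = 0.094, Fisher's exact test). In windows centred 400 bp higher in coordinate, the same 511 peaks held it in 0 cases (adjusted p = 3.8e-05, exact McNemar test). With the search widened to 200 bp the shares were 3.52% of summits and 0.783% of flanks (adjusted p = 0.0054, exact McNemar test).

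The signals of the 16 peaks with GCGCAGGG had a median of 161, from 45.9 to 252, against 71.5 for the other 495, and 10 of them ranked among the 100 strongest of the 511. Because signal entered the choice of peaks, this is a description only. The strongest lay in an intron of mom-1, which encodes the worm Porcupine needed for Wnt secretion, at 252, with 132 in replicate 1 and 116 in replicate 2. A peak nearest to W02H3.3 had 249, with 157.2 in replicate 1 and 99.0 in replicate 2. A peak nearest to xol-1, the switch gene of worm sex determination, had 217, with 113.9 in replicate 1 and 111.5 in replicate 2. Lower ones included egl-17, an FGF gene, at 132, col-185, a collagen gene, at 112.4, and dpy-23, an AP2 clathrin adaptor gene, at 74.9. The egl-17 summit also lay 4 bp upstream of the start of the tRNA gene F38G1.t2, while its copy of the core was centred 68.5 bp away. Of the 16, 11 were intergenic and 4 intronic, and the peak in pks-1, a polyketide synthase gene, was in a coding exon.

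The 16 peaks hold 20 copies of the core. The lines below show those of the peaks above 200 and of the 3 weakest peaks, as 30 bases of WBcel235 read along the strand that carries the core, in capitals, so that the bases on either side can be compared.
mom-1 (chrX:6296537-6296566, +): atttacatttgGCGCAGGGggtcaccatag
mom-1 (chrX:6296565-6296594, +): agataggtatcGCGCAGGGaagatttaccg
W02H3.3 (chrX:11094114-11094143, −): cgttttatatcGCGCAGGGagcttatgcat
W02H3.3 (chrX:11094215-11094244, −): gggaaccattcGCGCAGGGacacctcactg
Y41G9A.17 (chrX:2997112-2997141, −): ttaaatttatcGCGCAGGGaggaagtagcc
F22H10.2 (chrX:16682161-16682190, −): aagaaaacatcGCGCAGGGaacatcaaatt
F20B6.9 (chrX:4209255-4209284, −): ttgccgctatcGCGCAGGGacacctctttc
xol-1 (chrX:8036390-8036419, −): aattttttatcGCGCAGGGacgtatgtcga
xol-1 (chrX:8036424-8036453, +): atttttccatcGCGCAGGGaacccttcgat
pks-1 (chrX:5429579-5429608, +): cattaaatttaGCGCAGGGaggacgccgtt
F20B6.9 (chrX:4208728-4208757, +): caagtctcattGCGCAGGGacaccctttcg
B0302.2 (chrX:17181354-17181383, −): tattgaaataaGCGCAGGGaaggcgataca
Y15E3A.5 (chrX:15340920-15340949, −): tgtgcgcgtgcGCGCAGGGggccgacggac

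The base after the core was A in 16 of the 20 copies and G in 4. The base before it was C in 12, and T stood before that in 13. As background, the published longer form of the element carries TC before the core and AG after it. These flanks were compared after the 20 copies had been seen, so no test is given. Over all of X, 25 of the 81 copies of the core (30.9%, exact interval 21.1 to 42.1%) lay within 100 bp of an IDR summit, against 4 of 233 autosomal copies (1.72%, 0.470 to 4.34%). With the full list of peaks the numbers were 36 of 81 (44.4%) on X and 18 of 233 (7.73%) on autosomes. TC before and A after the core were both present in 10 of the 25 X copies at an IDR summit, against 3 of the other 56 X copies (5.36%). Among autosomal copies both were present in 0 of 4 at IDR summits and in 2 of 229 elsewhere.

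**Figure D3:**
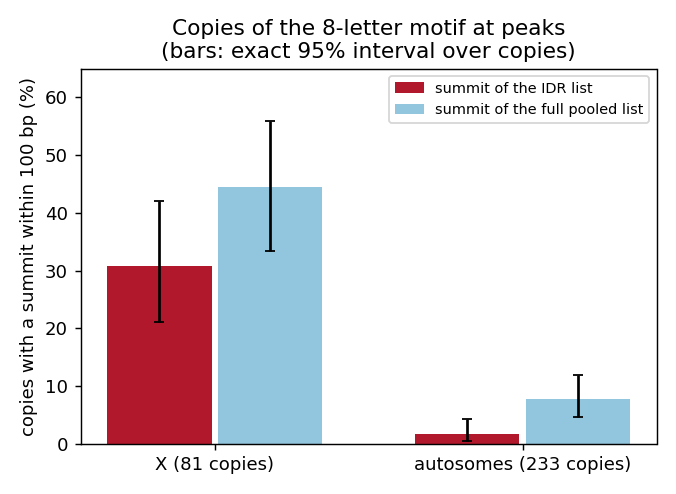
Share of GCGCAGGG copies in the genome that lie within 100 bp of a peak summit, in percent with exact 95% intervals over copies, for 81 copies on X and 233 on the autosomes, in the IDR list and in the full combined list. On X 30.9% of copies were at an IDR summit, against 1.72% on the autosomes.

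GAGAGA was found at 184 of the 511 summits (36.01%, 31.8 to 40.3%), against 765 of 1450 autosomal peaks (52.8%, 50.2 to 55.4%). The odds ratio was 0.50 (adjusted p = 1.3e-09, Fisher's exact test), and it stayed between 0.45 and 0.54 in all 15 alternatives. The tiled background was alike on both, at 9.04% of X windows and 9.71% of autosomal windows. X promoter peaks held it in 147 of 343 cases (42.9%), which did not pass (adjusted p = 0.081, Fisher's exact test). In the flanks 400 bp away it was in 50 of 511 windows, so summits exceeded their own flanks 3.68-fold (adjusted p = 3.7e-23, exact McNemar test). Alternating GA runs of at least 12 bp were found in 3.33% of the 511 peaks, against 8.62% of the autosomal set and 2.04% of the X promoter set.

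**Figure D4:**
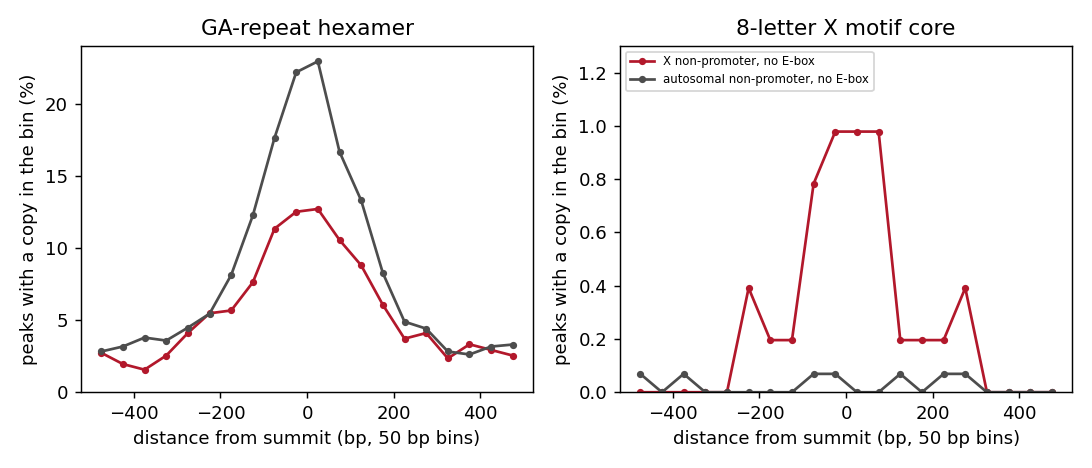
Share of peaks with a copy of GAGAGA (left) or GCGCAGGG (right) in each 50 bp bin by distance from the summit, in percent, for 511 X non-promoter peaks and 1450 autosomal non-promoter peaks without CACGTG. In the bin from 0 to 50 bp the X set had 12.7% for the GA word, against 22.97% in the autosomal set, and 0.978% for the 8-letter core, against 0.

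At least 1 of the 4 non-canonical E-boxes, counted together, stood at 256 of the 511 summits (50.1%), against 81 flank windows (15.9%; adjusted p = 1.9e-29, exact McNemar test). The share did not pass against the autosomal set (47.7%, adjusted p = 0.40) or X promoter peaks (43.1%, adjusted p = 0.082) by Fisher's exact test. CATGTG was in 127 of the 511 (24.9%), CACGCG in 83 (16.2%), CACGAG in 70 (13.7%) and CATGCG in 44 (8.61%), against 7.14%, 2.35%, 4.31% and 3.03% of the windows centred 400 bp to both sides.

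GCGCGC was in 31 of the 511 peaks (6.07%), against 1 flank window (adjusted p = 2.6e-08, exact McNemar test). The size of that difference depended on the flank: the ratio of summits to flanks was 31 there, 6.20 with the flank lower in coordinate (0.978% of windows) and 2.82 with flanks 800 bp away (2.15%). It was less frequent than in X promoter peaks, at 36 of 343 (10.5%; odds ratio 0.55, adjusted p = 0.046, Fisher's exact test), a call that 8 of 15 alternatives ended, among them leaving out the mdl-1 run (adjusted p = 0.061). TGATAA was in 120 of the 511 (23.5%), against 102 flank windows (19.96%; adjusted p = 0.20, exact McNemar test) and 58 of 343 X promoter peaks (16.9%; odds ratio 1.51, adjusted p = 0.046, Fisher's exact test). The call against X promoter peaks was lost in 12 of 15 alternatives, with odds ratios down to 1.05. Against the autosomal set, neither GCGCGC (8.07%, adjusted p = 0.19) nor TGATAA (27.7%, adjusted p = 0.094) passed, but TGATAA passed as less frequent on X in the list of each single replicate (adjusted p = 0.011 and 0.0031, Fisher's exact test), and GCGCGC in that of replicate 2 (adjusted p = 0.047). None of the 5 motifs was found in 86 of the 511 peaks (16.8%), whose median signal was 67.7. GC content averaged 43.9% at the summits and 34.3% in the flanks, so every GC-rich word was compared across windows that differ in composition.

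Non-coding genes started near many of the 511 summits. The summit lay in the window of a non-coding gene start, cut as for coding genes, at 181 peaks (35.4%), against 374 of 1450 autosomal peaks (25.8%; odds ratio 1.58, adjusted p = 0.00017, Fisher's exact test) and 72 of 343 X promoter peaks (21.0%; odds ratio 2.06, adjusted p = 2.7e-05). Without peaks in tRNA gene windows, an alternative added after the types had been seen, the difference from the autosomal set was lost (26.8% against 23.4%; odds ratio 1.20, adjusted p = 0.22, Fisher's exact test), while that from X promoter peaks held. The position rule separates the 511 from X promoter peaks. No coverage of non-coding windows inside promoter windows is given, so the difference from X promoter peaks has no background. The windows of tRNA genes held 60 of the 511 peaks (11.7%), against 45 of the 1450 autosomal peaks (3.10%). They cover 1.60% of the X bases outside promoter windows and 0.442% of the autosomal ones, with 276 tRNA genes on X and 336 on the autosomes. The windows of genes typed ncRNA held 149 of the 511 (29.2%) and cover 13.8% of those X bases, against 308 autosomal peaks (21.2%) and 6.58% of autosomal bases. The tests above take no account of coverage, which is larger on X for both types. The higher share of X peaks is therefore not read as a closer tie to non-coding genes.

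At the tRNA genes, 55 of the 60 summits lay within 100 bp of the annotated start, with a median of 12.5 bp downstream of it. The strongest, near R04A9.t1 in an intron of hrg-11.4, had 194, with 86.2 in replicate 1 and 114 in replicate 2. The next, 29 bp upstream of C33G3.t2, had 189.6, with 87.2 in replicate 1 and 99.5 in replicate 2. Of 276 X tRNA genes, 77 (27.9%) had one of the 511 summits in their window, and 95 (34.4%) had a summit of any IDR peak there. tRNA genes are near-identical copies, so reads may be split or misplaced among them and the single gene is uncertain.

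Each of the 511 peaks was given to the coding gene that contains the summit (218 peaks) or else to the one with the nearest start (293 peaks). This named 352 of the 2731 coding genes of X (12.9%), of which 261 had 1 peak and 14 had at least 4. Genes with at least 4 peaks had a median length of 11403 bp, against 2548 bp for all X coding genes, so length moves with the count.

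lin-14, which encodes a nuclear protein of the heterochronic pathway that sets early larval cell fates, had 9 of these peaks, 7 of them in its introns. Their signals ran from 46.3 to 213. The strongest, at X:11467394-11467563, had 213, with 105 in replicate 1 and 107 in replicate 2. The next, at X:11472013-11472248, had 194, with 119.2 in replicate 1 and 72.4 in replicate 2. Both of these hold GAGAGA and a non-canonical E-box.

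kin-20, the worm casein kinase 1 related to fly doubletime and also a heterochronic gene, had 6 peaks, with signals from 46.4 to 266. Its strongest 3 lay in introns at 266, 214 and 198, above the 3 others, which reached at most 50.02. nhr-1 and ZK470.2 had 7 peaks each, with maxima of 214 and 129.6, and F49E2.5 had 6, up to 276. sma-9, the worm Schnurri of BMP-like signalling, had 5 with a maximum of 249, and fkh-9, a forkhead gene, had 5 with a maximum of 87.4. nhr-14 had 4, the 2 strongest at 242 and 206. mdl-1 had 6, all in the run that spans it, and F57G12.1, M163.1, scd-1, H18N23.2 and F46H5.3 had 4 or 5 each, with maxima from 65.04 to 136.9.

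**Figure D5:**
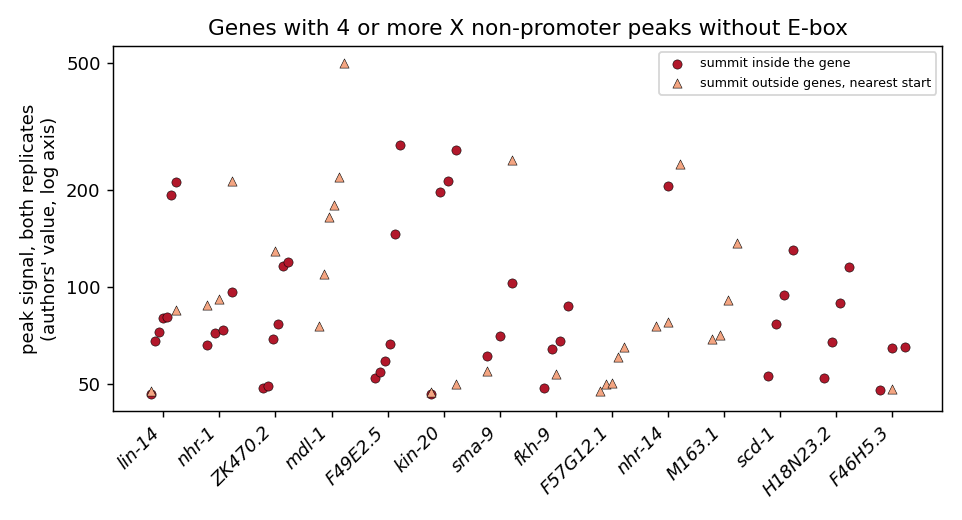
Deposited signal (log axis) of every X non-promoter peak without CACGTG given to the 14 genes with at least 4 of them, one point per peak, with circles for summits inside the gene and triangles for summits outside genes nearest to its start. At kin-20 the peaks of 266, 214 and 198 stand above 3 of at most 50.02, and lin-14 has the most points, 9, from 46.3 to 213.

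Gene families on X were described by the share of members with one of these peaks, beside the 12.9% of all X coding genes. Each family was a list drawn up by gene symbol. Other X genes of related function were not counted, and some of them had a peak. Nuclear hormone receptors, ligand-regulated transcription factors, had a peak in 15 of 23 cases (65.2%), with 31 peaks in all. Their median length of 4483 bp was above that of all X genes. nhr-3 had the strongest, an intronic peak of 313, which had 173 in replicate 1 and 141 in replicate 2; the highest of nhr-48 was 187. Insulin, TOR and AMP-activated kinase genes, which couple growth to nutrients, had a peak in 7 of 9 cases (77.8%). The median length of this list, 4580 bp, was also above that of all X genes. pdk-1, a kinase upstream of AKT, had 2 peaks of 189.8 and 152, and aak-2, a catalytic subunit of AMP-activated kinase, had 147 and 69.3. Its subunit genes aakg-4 and aakb-1 had 114 and 90.9.

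Basic helix-loop-helix genes had a peak in 4 of 9 cases: mdl-1, the Max-like mxl-3 with 205.5 at its highest, the proneural lin-32 with 128.6 and hlh-29 with 101. Their 12 peaks include 6 of mdl-1. Of the 13 listed Wnt, TGF-beta, Notch and EGF/Ras genes, 2 had a peak, mom-1 and sma-9. Of the listed homeobox genes, none of 25 had a peak, and of the listed lipid metabolism genes, none of 14. These lists do not cover every X gene of either kind, so neither count shows an absence over the whole family. Neurotransmitter receptor genes and neuropeptide genes had 1 in 41 each (2.44%), lgc-21 with 189.6 and flp-8 with 47.9, and potassium channel genes 1 in 19, twk-21 with 67.9, although the last had a median length of 8277 bp. The lgc-21 peak is the one upstream of C33G3.t2. The twk-21 and lin-32 summits also lay in tRNA gene windows, 23 and 48 bp downstream of the tRNA starts. Cuticle collagen genes had 3 of 30, axon guidance and adhesion genes 3 of 26, muscle structure genes 2 of 18 and chemoreceptor genes 2 of 36. Summits in tRNA gene windows among these were those of col-181 (collagen), him-4 and cdh-9 (axon guidance and adhesion), and srd-43 and srxa-8 (chemoreceptor). No test is attached to these counts, since the lists and the peaks were chosen with results of these data known.

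The remaining strongest peaks by the same naming lay near C30E1.4 (327), egrh-1, an early growth response zinc finger gene (319.8), M02E1.3 (315), hda-4, a class II histone deacetylase gene (287), and ZK899.6 (274). In these 5 the replicates differed by log2 ratios from -0.12 to 0.28.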

How the data were processed

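TF ChIP-seq of whole L4 larvae was analysed in 2 libraries, replicates 1 and 2 of 1 group. Of the 8 deposited peak lists, the 4 on ce11 were used: 29572 peaks for replicate 1, 28282 for replicate 2, 27577 called on both together and 4293 kept by IDR. Per the deposited file descriptions, the combined list was called on the reads of both replicates, and the IDR list was derived from it. The deposited signal value of each peak was used as the authors gave it; its scale, the peak caller, the aligner, their settings, the IDR threshold and the sequencing depth were not stated in the labels or files used here. Deposited lists on ce10 were not used.

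Gene starts, exons and gene types came from Ensembl release 115 on WBcel235, and RefSeq names, matched by WormBase identifier, were found for 19965 of 19973 coding genes. Motifs were searched on both strands within 100 bases of each summit, whole words only. Shares of peaks were compared with two-sided Fisher's exact tests, 18 of them adjusted together, and summits with their own flanks, centred 400 bp higher, with exact McNemar tests, 5 adjusted together (Benjamini-Hochberg, threshold 0.05). Intervals are exact (Clopper-Pearson) at 95% and cover counting error over peaks or copies only. Neighbouring IDR peaks at most 10000 bp apart were joined into runs. The scripts were tested on simulated data. The tools were scipy 1.17.1, pandas 2.3.3 and numpy 2.4.6 under Python 3.11.15, with matplotlib 3.10.9 for plots.

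The peaks, the motifs and the 13 gene lists were chosen with earlier results of these data known. Genes named are those of the 20 strongest peaks, those with at least 4 peaks, up to 4 per list by strongest peak, and mdl-1, klu-1 and unc-119; members with GCGCAGGG, the transfer RNA genes and the nhr-3 outlier were named after their values were seen. Alternatives covered promoter and E-box windows, summit definition, signal, runs, single replicates, motif windows and flanks; 2 were added after the data were seen.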

Additional observations from a re-analysis of the deposited data

How the results depend on the processing

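Of 336 recomputed test values under 18 alternatives, 291 kept their direction and side of the threshold; the cause of the changes below was not tested unless it follows from fewer peaks. Ratios are odds ratios of the 511 X peaks over the set named, or summit over flank. The number of X peaks was 248 at or above the median signal and 182 when each run kept its strongest IDR peak of any kind, since both leave fewer peaks. Leaving out a replicate gave 531 to 544.

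Against the autosomal set, the intron ratio lost its call at or above the median signal (0.80), with 1 peak per run (0.78), with both replicates' summits close (0.78) and without tRNA windows (0.77), and leaving out a replicate gave 0.77 to 0.79. TGATAA passed with the 500 bp promoter window (0.74) and at 0.68 to 0.72 with a replicate left out; GCGCGC had 0.60 to 0.62 there and passed without replicate 1. The replicate ratio, built from signals that IDR had compared, passed with the 2000 bp window (0.76) and with every transcript start (0.78). The non-coding start ratio lost its call without tRNA windows (1.20). Directions turned, in each case short of the threshold, for non-canonical E-boxes (0.97 at or above the median signal, 0.99 to 1.06 with a replicate left out), close neighbours (0.86 at or above the median signal) and other transcript starts (1.00 with 1 peak per run).

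Against X promoter peaks, the GCGCGC call was lost with promoter windows of 500 bp (0.69) and 2000 bp (0.61), no E-box within 200 bp (0.58), no mdl-1 run (0.56), close summits (0.59), no tRNA windows (0.58) and motif windows of 50 bp (0.50) and 200 bp (0.73). The TGATAA call was lost with promoter windows of 500 bp (1.16) and 2000 bp (1.36), every transcript start (1.23), E-box windows of 50 bp (1.43) and 200 bp (1.41), 1 peak per run (1.25), no mdl-1 run (1.51), close summits (1.54), motif windows of 50 bp (1.31) and 200 bp (1.05), and with a replicate left out (1.25 to 1.32). GAGAGA passed with every transcript start (0.69) and motifs within 50 bp (0.64), and non-canonical E-boxes with motifs within 200 bp (1.49). Close neighbours lost their call with 1 peak per run (1.45), which drops them by construction. The replicate ratio turned at or above the median signal (1.02) and with 1 peak per run (1.19).

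At summits against flanks, TGATAA turned at or above the median signal (0.96) and with motifs within 200 bp (0.96), and passed without tRNA windows (1.32). GAGAGA kept its call, and so did GCGCGC, the core GCGCAGGG and non-canonical E-boxes, against flanks in all 17 alternatives, though the ratio for GCGCGC ran from 2.82 to 31 and that for the core was 4.50 with motifs within 200 bp.

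No paired analysis was possible because there is 1 group. Depth is unknown, so weak peaks near the signal of 45.6 cannot be told from unlisted ones.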

Other observations

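The peaks were not spread evenly along X. In 6 equal segments from left to right there were 57, 85, 94, 69, 99 and 107 of them, or 22.9, 35.1, 39.7, 28.5, 41.7 and 42.3 per Mb outside promoter windows. Over all of X the density was 35.0 per Mb, and on the 5 autosomes peaks of the same rules had 17.9 to 27.004 per Mb. Runs of neighbouring IDR peaks held them in 274 places, of which 167 had 1 and 20 had at least 5, with 132 peaks in those 20.

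Besides the run at mdl-1, the largest numbers were 9 of these peaks in runs at fkh-9 and at lin-14, and 8 in a run of 54365 bp that holds hbl-1, a Hunchback-like heterochronic gene, and puf-9, a Pumilio-family gene. These runs were named after their values were seen.

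All 6-letter words with at least 30 occurrences were compared between summit windows and flank windows on both sides. Each ratio adds 0.5 to both counts and takes the flank count as a mean per side. GCGCGC had the highest ratio at the 511 peaks (15.5, from 50 occurrences against 6 in both flanks together), and the median word had 1.15. GCGCGC also had the highest ratio at the autosomal peaks, 10.7. CCTGCG had 7.09 at these peaks and 3.05 at the autosomal peaks, and ACCCGG had 6.87 and 1.78. CCTGCG overlaps the reverse complement of the GCGCAGGG core. These words were picked after their ratios were seen, and no test is given.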
